A study of Homo sapiens with 7 samples.

Results

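Reporter activity of 353 wild-type constructs in 90 candidate regulatory regions was read against scrambled sequence in C4-2B, an established cell line of human prostate cancer with a bone-metastatic origin. The 353 were chosen from the 358 constructs of the authors' deposited table by leaving out the 5 with an estimate above 10 in size. The rejected estimates ran from 16.0 to 18.6 in size in the authors' deposited table, with standard errors of 357 to 1907, whereas the largest estimate kept was 4.68 ± 1.24, at LRCH3. The rejected constructs lay in regions at MICAL3, FDPS, DIO3, WASF2 and CCT3, and the CCT3 region lost its only wild-type construct, so 90 of 91 regions remained. A mutant table brings the series to 1383 constructs and is not analysed here.

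In a lentiviral massively parallel reporter assay, a candidate sequence is cloned beside a minimal promoter and a barcode, and the construct integrates into the genome of the transduced cell. The share of a barcode in RNA over its share in genomic DNA (gDNA) then measures how strongly the sequence drives transcription. Enhancers raise that ratio and silencers lower it, and scrambled sequence, with its bases in another order, serves as the baseline. How the scrambled sequences were made and which of them served for each construct were not stated in the labels. Enhancer fragments owe their activity to clusters of short transcription factor sites, so fragments of a single region need not behave alike.

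All libraries came from C4-2B cells, carrying the same reporter library and no further treatment named in the labels. The 7 libraries were 1 that paired barcodes with candidate sequences, 3 of gDNA and 3 of RNA, with gDNA and RNA taken 48 hours after transduction. Each construct is named for a region and for 1 tested site within it, and the constructs of a region are therefore pieces of shared or neighbouring sequence, not replicates. The authors' model joined the replicates into 1 estimate per construct, on the natural log scale of an odds ratio, and a positive value is read here, from the name of the table, as wild-type activity above that of scrambled sequence. An error written with ± is the standard error implied by the estimate and its z value. For a weighted mean, ± is computed from those errors alone and leaves out the spread among constructs of the region. Values per library, barcode counts and depth are unknown, so no spread between replicates could be given. A construct is called higher or lower where its adjusted p in the authors' deposited table was under 0.05. No endogenous RNA level is given, so the identity of the cells could not be checked against markers.

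The regions were 278 to 4999 bp long, with a median of 1364 bp. Of the 90, 58 were within the body of a gene, 4 crossed a gene end and 28 were intergenic. Each region takes the name of the protein-coding gene it overlaps or, failing that, the nearest one (hg38), which says nothing of the gene it may act on. A region held 1 to 13 constructs, with a median of 3. There were 14 regions with 1 construct, 51 with 2 to 4 and 25 with 5 or more.

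The only wild-type site within a RefSeq start window (250 bp before to 50 bp after a gene's start) belonged to SULT1C4, a sulfotransferase gene. Its 250 bases before the start are shown because no other start window held a tested site (chr2:108377704-108377953, plus strand, GRCh38.p14, RefSeq). The capitals mark the single match to TATAAA, the letters of a TATA box. The match lies near the middle of the 250 bases, not close to the start, and whether it acts as a TATA box was not tested.

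SULT1C4: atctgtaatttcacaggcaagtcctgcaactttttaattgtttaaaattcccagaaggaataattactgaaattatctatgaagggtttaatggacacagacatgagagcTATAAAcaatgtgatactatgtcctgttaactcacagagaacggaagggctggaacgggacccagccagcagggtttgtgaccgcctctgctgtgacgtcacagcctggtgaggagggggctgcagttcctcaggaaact

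TATAAA, on either strand, occurs in 10.7% of 35116 such RefSeq windows. That window held no match to GGGCGG (a GC box, in 42.6% of windows), CCAAT (32.0%), the androgen receptor half-site AGAACA (12.4%) or the forkhead core TGTTTAC (2.98%), each searched on both strands. The tested site lay within the 50 bases after the start, and how much of the window the construct carried is not given in the sources used here. Activity of the SULT1C4 construct was 0.04 ± 0.04 in the authors' deposited table, without a call.

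Most wild-type constructs differed from scrambled sequence, and most differences were modest. Of the 358 deposited constructs 62.3% were called, with 34.1% called higher and 28.2% lower. The median size of a kept estimate was 0.34, or 1.40-fold in odds, with quartiles of 0.15 and 0.64. There were 122 kept constructs under 0.2 in size, of which 25 were called. A further 150 lay from 0.2 to 0.7, with 118 called, and 58 from 0.7 to 1.5, with 57 called. The remaining 23 exceeded 1.5 and were all called. These calls rest on the stated errors: z had a robust SD (from the median deviation) of 4.12, and dividing each z by it left 4 calls, 1 each at MCPH1, SKAP1, CIAO3 and IL3RA.

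The largest values were also the least precise. The median standard error rose from 0.09 among constructs under 0.2 in size to 0.11, 0.16 and 0.47 in the successive larger classes. None of the 23 constructs beyond 1.5 had a standard error of at most 0.2, a limit that 264 of the 353 constructs met. Estimates of these 264 precise constructs ran only from -1.33 to 1.42 in the authors' deposited table, and 169 of them were called. Their median size was 0.26, against 0.72 for the 89 less precise constructs, of which 54 were called.

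Every construct was called in 1 direction in 5 of the 76 regions with at least 2 constructs. Over all 358 deposited constructs, 34.1% were called higher and 28.2% lower. How many such regions those shares alone would give was not tested. Of the 5, the region 299 bp beyond the higher-coordinate end of MCPH1, a DNA damage response gene, held the most constructs (chr8:6648807-6650052). Its 6 constructs, in order along the chromosome, had values of 1.33 ± 0.06, 3.04 ± 0.34, 2.16 ± 0.28, 0.53 ± 0.15, 3.43 ± 0.55 and 0.70 ± 0.19 in the authors' deposited table. All were higher than scrambled sequence, and their tested sites lay 9 to 60 bp from the next. The MCPH1 values nonetheless differed among themselves by more than their errors (chi-square test of Cochran's Q, adjusted p = 5.31e-17), and the weighted mean was 1.28 ± 0.05, or 3.59-fold. It was the highest weighted mean among the regions with at least 2 constructs, and leaving out any 1 construct kept it between 1.10 and 1.37. A random-effects mean, whose error includes the spread among constructs, was 1.80 ± 0.48 at MCPH1.

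The other uniformly higher regions rested on fewer constructs. Inside LRCH3, a leucine-rich repeat gene, the values were 0.36 ± 0.11, 0.55 ± 0.08 and 4.68 ± 1.24 in the authors' deposited table (chr3:197792365-197794253). The first and second lay 2 bp apart and were close, while the third, 21 bp further on, was the largest and among the least precise estimates kept. The region 882 bp upstream of SLC25A12, a mitochondrial aspartate-glutamate carrier gene, held 0.44 ± 0.11 and 3.64 ± 1.25 in the authors' deposited table (chr2:171895126-171899252). In both places the weighted mean, 0.51 ± 0.06 at LRCH3 and 0.47 ± 0.11 at SLC25A12, followed the precise constructs and was 1.66- and 1.59-fold above scrambled sequence. Unweighted, the means were 1.87 at LRCH3 and 2.04 at SLC25A12.

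Uniformly lower regions were found at the microtubule glycylase gene TTLL3 and the RNA-binding protein gene HNRNPF. At TTLL3 and the read-through gene ARPC4-TTLL3, the authors' deposited table held -0.39 ± 0.13, -1.18 ± 0.17 and -0.36 ± 0.10, and the weighted mean was -0.52 ± 0.07 (chr3:9836314-9837354). Upstream of HNRNPF, 3631 bp from the gene, 2 constructs with sites 6 bp apart were lower, with -0.64 ± 0.21 and -1.01 ± 0.15 in the authors' deposited table (chr10:43412817-43413878). The HNRNPF pair did not differ detectably (chi-square test of Q, adjusted p = 0.162), and their weighted mean of -0.88 ± 0.12, or 2.42-fold lower, was the lowest of any region with at least 2 constructs.

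Estimates of 1 sign, called or not, filled 16 of the 76 regions. All estimates were positive in 10 of the 76 regions and all negative in 6. The NDRG1 region was close to uniform (chr8:133252343-133253812). Inside this androgen-responsive gene the 5 constructs had values of -0.09 ± 0.06, -0.37 ± 0.04, -0.74 ± 0.08, -0.38 ± 0.05 and -0.19 ± 0.08 in the authors' deposited table. All were below scrambled sequence and the last 4 were called. The weighted mean at NDRG1, -0.34 ± 0.03 or 1.41-fold lower, stayed between -0.40 and -0.30 when each construct was left out.

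Moderate activity, a weighted mean from 0.2 to 0.7 in size, was the middle class of regions. It took in 34 of 76, against 40 below 0.2 and 2 above 0.7, which were MCPH1 and HNRNPF. The 34 split into 18 above and 16 below scrambled sequence. In 10 of the 34 all constructs shared a sign, against 16 of all 76 regions. Calls in both directions were held by 15 of the 34, against 39 of all 76. Leaving out 1 construct at a time kept the sign of the mean in 22 and turned it in 12.

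Among the moderately higher regions, VEGFB, KLC4 and others, such as LRCH3 and ZNF544, stayed in that class whichever construct was left out. IL3RA and F11R did not. In VEGFB, which encodes a growth factor of the VEGF family, 0.74 ± 0.16 and 0.83 ± 0.11 at sites 38 bp apart were flanked by 0.04 ± 0.16 and 0.10 ± 0.09 in the authors' deposited table (chr11:64236730-64238336). The VEGFB inner constructs were thus raised and the outer ones not called, for a weighted mean of 0.39 ± 0.06, or 1.48-fold, which lay between 0.21 and 0.61 as single constructs were left out. In KLC4, a kinesin light chain gene named after its values were seen, -0.23 ± 0.30 was followed by 0.58 ± 0.11, 0.41 ± 0.16 and 0.32 ± 0.09 in the authors' deposited table (chr6:43067399-43069397). The last 3 KLC4 constructs were called higher although the final site lay 1740 bp from the one before it, and heterogeneity did not pass the threshold (chi-square test of Q, adjusted p = 0.0546). The weighted mean of the KLC4 constructs was 0.40 ± 0.06, or 1.48-fold, and stayed between 0.31 and 0.46 as single constructs were left out. In the region upstream of IL3RA, an interleukin-3 receptor gene of the pseudoautosomal part of chromosome X, 5 of 8 constructs were called higher and 2 lower, and the weighted mean was 0.23 ± 0.03 (chrX:1334602-1336399). That IL3RA mean lay between 0.08 and 0.35 as single constructs were left out, and the unweighted mean was 0.13. The F11R mean of 0.28 ± 0.04 likewise combined 4 higher calls with 1 lower, 282 bp from the gene of a tight junction protein, and lay between 0.13 and 0.39 as single constructs were left out.

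At SF3A1, HYAL1 and CIAO3, leaving out 1 construct turned the sign of a moderate mean. At SF3A1, a U2 spliceosome gene, the weighted mean was 0.51 ± 0.06 but became -0.04 without the most precise of its 3 higher constructs. For HYAL1, a hyaluronidase gene, the authors' deposited table gave 0.67 ± 0.05, -1.75 ± 0.42, 0.45 ± 0.14 and -0.89 ± 0.23, all 4 called (chr3:50308573-50309039). Its weighted mean was 0.55 ± 0.05 and its unweighted mean -0.38, since the most precise HYAL1 construct was also the highest. At ADNP, a chromatin regulator gene, -0.25 ± 0.10 and -0.45 ± 0.07 lay 1 bp apart while 0.72 ± 0.21 lay 294 bp away in the authors' deposited table (chr20:50905560-50907961). The ADNP mean was -0.32 ± 0.05 when weighted and 0.01 when not. The region upstream of CIAO3, an iron-sulfur assembly gene, had -1.12 ± 0.06 followed 25 bp later by 0.48 ± 0.08, then 0.16 ± 0.06 and 0.07 ± 0.06, in the authors' deposited table (chr16:741331-741695). Its mean turned from -0.20 ± 0.03 to 0.20 when the lower CIAO3 construct was left out. The T-cell adaptor gene SKAP1 and TCP11L2 kept negative means, -0.24 ± 0.03 and -0.29 ± 0.06, which lay between -0.46 and -0.09 and between -0.42 and -0.06 as single constructs were left out.

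Densely sampled regions mostly combined higher and lower calls. The 25 regions with 5 or more constructs held 185 constructs, of which 68 were called higher and 52 lower, and 21 of the 25 had calls in both directions. Over all 358 deposited constructs, 34.1% were called higher and 28.2% lower. More constructs leave more room for both directions, and how many such regions these shares alone would give was not tested. The weighted mean was under 0.2 in size in 18 of the 25 regions. Among the 51 regions of 2 to 4 constructs, 18 had both directions. Over all 90 regions, 39 held both directions, 21 higher calls only, 21 lower calls only and 9 no call.

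HNRNPR, SSB and EP300, genes of RNA-binding and chromatin proteins, each had densely sampled regions with calls in both directions. Upstream of HNRNPR, which encodes a heterogeneous nuclear ribonucleoprotein, 4 of 11 constructs were called higher and 4 lower, from -0.80 ± 0.11 to 0.52 ± 0.09 in the authors' deposited table (chr1:23346149-23349256). Along HNRNPR, -0.30, -0.36 and -0.31 were called lower before 0.52, 0.32 and 0.17 called higher, with calls at 0.21 and -0.80 between them, in the authors' deposited table. Upstream of SSB, the gene of the La protein that binds new RNA polymerase III transcripts, the 6 constructs alternated. They had values of 0.70 ± 0.10, -0.20 ± 0.08, 0.51 ± 0.11, -0.57 ± 0.21, 0.32 ± 0.08 and -0.27 ± 0.10 in the authors' deposited table, each called (chr2:169794280-169798023). Upstream of EP300, the histone acetyltransferase and androgen receptor coactivator, 6 of 9 were called higher and 1 lower (chr22:41087514-41090530). The EP300 region had its 3 largest values, 0.35 ± 0.10, 0.57 ± 0.07 and 0.38 ± 0.06 in the authors' deposited table, at its last 3 sites, 4 and 26 bp apart. Its weighted mean was 0.16 ± 0.02, or 1.18-fold.

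So did CHMP4B, SLC6A19 and SLC8A2, genes of membrane remodelling and transport. Upstream of CHMP4B, an ESCRT-III subunit gene, the 13 constructs gave 4 higher and 4 lower calls, between -1.02 ± 0.09 and 0.34 ± 0.09 in the authors' deposited table (chr20:33806305-33810614). The lowest CHMP4B construct lay between the pair of highest ones, 22 bp from the first and 32 bp from the second, and the weighted mean was -0.07 ± 0.02. The region upstream of the amino acid transporter gene SLC6A19 held the most precise series of constructs (chr5:1196596-1199251). Its last 7, with standard errors of 0.02 to 0.03, read -0.14, -0.17, 0.16, 0.11, 0.26, -0.09 and 0.02 in the authors' deposited table. The first 6 of those 7 SLC6A19 constructs were called, with shifts of at most 1.30-fold, and the weighted mean over all 12 was 0.02 ± 0.01. In SLC8A2, a sodium-calcium exchanger gene, the values went from -0.45 ± 0.11 at the first site to 0.38 ± 0.03 at the last in the authors' deposited table (chr19:47457914-47459210). Between them lay -0.08 ± 0.03, -0.21 ± 0.04, -0.01 ± 0.03 and 0.06 ± 0.03, so lower calls preceded the higher ones along SLC8A2 in the authors' deposited table.

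The regions at C2, IL3RA, TAPBP and ADAMTS2, immune and matrix genes, also held higher and lower calls. In C2, a complement protease gene, the pair of lower calls, -0.18 ± 0.05 and -0.28 ± 0.08, lay 10 bp apart in the authors' deposited table (chr6:31922725-31925687). Constructs further along C2 reached 0.35 ± 0.09, 0.49 ± 0.13, 0.82 ± 0.10, 0.86 ± 0.07 and 0.64 ± 0.23, all called higher in the authors' deposited table, with an uncalled -0.19 ± 0.10 among them. The IL3RA constructs spanned -1.33 ± 0.11 to 1.14 ± 0.08 in the authors' deposited table, the widest gap between precise opposite calls in any region, or 11.8-fold. A further region overlapped both RGL2 and TAPBP, a gene of peptide loading onto MHC class I (chr6:33300381-33300737). Its first pair of values was negative and its last 4 positive, from -0.74 ± 0.29 to 0.63 ± 0.21 in the authors' deposited table. In ADAMTS2, a procollagen protease gene, 0.82 ± 0.12 at the second site stood above 7 constructs between -0.22 and 0.20 in the authors' deposited table (chr5:179124778-179125119). The ADAMTS2 region had 2 higher and 4 lower calls within 342 bp.

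The remaining densely sampled regions lay at genes of varied function, and calls of 1 direction were found at DIO3 and NETO2. The region upstream of DIO3, a deiodinase gene that inactivates thyroid hormone, had 2 higher calls, both at 0.43 in the authors' deposited table, and 5 uncalled constructs (chr14:101550224-101552220). The region in NETO2, which encodes a kainate receptor auxiliary subunit, had 2 lower calls at sites 9 bp apart, -0.61 ± 0.13 and -0.58 ± 0.24 in the authors' deposited table, and 4 uncalled (chr16:47077704-47079633). The region over an end of HTR4, a serotonin receptor gene, ranged from -1.40 ± 0.31 to 0.96 ± 0.16 in the authors' deposited table, with 2 calls each way among 7 (chr5:148654516-148659126). NRG1 and NRARP, of the ERBB and Notch pathways, had 4 of 10 and 3 of 7 constructs called higher and 1 each called lower, with weighted means of 0.19 ± 0.05 and 0.02 ± 0.04. POM121, CDC42EP5, PLCH2, ZNF556 and TDRD9 had 1, 1, 2, 1 and 2 higher calls beside 2, 2, 2, 1 and 2 lower, and weighted means between -0.11 and 0.14. The TDRD9 values were the most spread of these, from -1.84 ± 0.31 to 1.15 ± 0.10 in the authors' deposited table.

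Heterogeneity within regions was tested with Cochran's Q, which asks whether constructs differ by more than their own errors. Constructs differed in 65 of 76 regions, or 85.5% (adjusted p under 0.05), including all 25 regions with 5 or more constructs. With every error multiplied by 4.12, 2 regions passed, CIAO3 and IL3RA. The median I2, the share of the spread that the errors do not account for, was 92.8%. The 11 regions that did not pass had a median standard error of 0.18 per construct, against 0.11 in the others, so less could be detected there. They were KLC4, UBE4A, SPIC, FDPS, HNRNPF, ATXN2, AREL1, DNAAF3, EIF1AX, ENG and ZNF544. At ENG, which encodes the TGF-beta co-receptor endoglin, the constructs had values of 0.10 ± 0.12, 0.21 ± 0.08 and 0.16 ± 0.05 in the authors' deposited table (chr9:127822522-127824301). The ENG constructs were all slightly positive, the last 2 called higher, with a weighted mean of 0.17 ± 0.04, or 1.19-fold (chi-square test of Q, adjusted p = 0.734).

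Regions without a call were 4 of the 76. The region upstream of EIF1AX, a translation initiation factor gene, was the best measured, at -0.04 ± 0.12, -0.06 ± 0.07 and 0.06 ± 0.06 in the authors' deposited table (chrX:20142158-20142435). Its weighted mean of 0.00 ± 0.04 lay on scrambled sequence although the EIF1AX region ends 320 bp from the gene's start. AREL1 and DNAAF3, with 2 constructs each, had means of 0.13 ± 0.11 and 0.09 ± 0.07. ZNF544, with 3, had 0.31 ± 0.15, and none of its constructs was called.

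A variance model with regions and constructs as nested terms split the spread that remained beyond the errors. The SD between regions was 0.24 (95% profile interval 0.13 to 0.34) and the SD among constructs of a region was 0.55 (0.49 to 0.61). Regions thus held 15.9% of that variance. Without the MCPH1 region the SD between regions was estimated at 0, with an upper bound of 0.19, and the share at 0%. Leaving out any other single region gave 14.7 to 17.7%. Among the 264 precise constructs the share was 5.39%, and 2.55% without MCPH1.

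Neighbouring constructs differed about as often when their sites were close as when they were far apart. The 263 neighbouring pairs had a median distance of 52 bp between tested sites, and 157 of them differed, or 59.7% (difference of estimates over its error, adjusted p under 0.05). With errors multiplied by 4.12, 1 pair differed, at CIAO3. Within 10 bp, 25 of 44 pairs differed (56.8%), and beyond 200 bp, 40 of 65 (61.5%). The classes of 11 to 50, 51 to 100 and over 100 to 200 bp had 60.5%, 57.6% and 60.0%. The median size of the difference was 0.45 within 10 bp and 0.57 beyond 200 bp, or 1.57- and 1.77-fold. Both members had the same sign in 24 of 44 pairs within 10 bp and in 133 of all 263 pairs (50.6%). Pearson's r between neighbours was 0.11 over the 44 closest pairs and 0.11 over all 263, and 0.02 over the 258 pairs outside MCPH1. These correlations are descriptions, since pairs of a region share constructs and may share sequence.

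Where both neighbours were called, 62 pairs had the same direction and 50 opposite ones, or 57 and 50 outside MCPH1. Within 10 bp the numbers were 16 and 11, MCPH1 included. Of the 358 deposited constructs, 34.1% were called higher and 28.2% lower. How many pairs of the same direction those shares alone would give was not tested. Close pairs that moved together included LRCH3, HNRNPF, ADNP, NETO2 and NDRG1 above, and at IL3RA 0.68 ± 0.06 and 0.32 ± 0.11 with sites 9 bp apart in the authors' deposited table. At EP300 0.20 ± 0.07 and 0.30 ± 0.06 lay 1 bp apart in the authors' deposited table.

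Opposite calls within 10 bp came from 9 regions. In DNAH12, a dynein heavy chain gene, 0.64 ± 0.12 and -0.99 ± 0.12 had sites 1 bp apart in the authors' deposited table, a difference of 5.11-fold (chr3:57551278-57555073, adjusted p of the difference 2.3e-20). At F11R, 1.01 ± 0.12, -0.20 ± 0.09 and 0.42 ± 0.11 followed each other at 6 and 3 bp in the authors' deposited table (chr1:161021434-161026093). Upstream of FAM167B the sequence was -0.86 ± 0.11, 0.43 ± 0.13 and -0.54 ± 0.12 at steps of 4 bp in the authors' deposited table (chr1:32242892-32246238). In CGN, the gene of the tight junction protein cingulin, 0.72 ± 0.16 and -1.64 ± 0.34 were 7 bp apart in the authors' deposited table (chr1:151525832-151527830). HYAL1, HNRNPR and the TAPBP region had the other opposite pairs at 3, 1 and 5 bp.

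In 3 pairs both constructs carried the same tested base, named for different alleles there. Whether such constructs held the same wild-type sequence is not given in the sources used here. Near the downstream end of P2RY8, a G protein-coupled receptor gene, the authors' deposited table gave 0.78 ± 0.12 for one and -0.77 ± 0.12 for the other (chrX:1461066-1462569, adjusted p of the difference 1.03e-17). Upstream of MACIR, the authors' deposited table held 0.88 ± 0.20 and -1.70 ± 0.28 (chr5:103244049-103244529, adjusted p of the difference 5.35e-13). At IL3RA both were higher, at 1.14 ± 0.08 and 0.52 ± 0.11 in the authors' deposited table, and they too differed (adjusted p of the difference 1.49e-05). All 3 same-site pairs therefore differed by more than their stated errors, and the P2RY8 and MACIR pairs had opposite calls.

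Other wide gaps between precise constructs lay further apart. In ZNF577, a zinc finger gene, 0.79 ± 0.20 was followed 53 bp later by -2.79 ± 0.55 and 24 bp after that by -0.87 ± 0.12 in the authors' deposited table (chr19:51860243-51863236). The precise ZNF577 constructs were those at 0.79 and -0.87, a gap of 1.66 or 5.24-fold. The error of the construct between them was above the limit of 0.2. In LIMA1, an actin-binding protein gene, -1.05 ± 0.13 and 0.28 ± 0.07 were 208 bp apart in the authors' deposited table (chr12:50189761-50190259).

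Regions were grouped by lists of genes of known function, each holding 1 to 4 regions. For comparison, the median estimate over all 353 constructs was 0.02, with 122 called higher and 130 not called. The androgen receptor and prostate lineage list had 7 constructs, with a median estimate of -0.29. Its 1 higher call was at FOXA1 and its 4 lower calls were all at NDRG1. EP300, an androgen receptor coactivator gene outside that list, had 6 of 9 constructs called higher and 1 lower. In the epithelial junction list, F11R and CGN gave 5 higher and 3 lower calls among 11 constructs, with a median of -0.12. The DNA damage and replication list had 6 higher calls, all at MCPH1, and 2 lower, both at TIMELESS, among 10, with a median of 0.62. Notch, ERBB and Wnt genes were represented by NRARP and NRG1, with 7 higher and 2 lower calls among 17 and a median of 0.13. The splicing list held SF3A1 alone, with 3 of 4 called higher and a median of 1.11. Earlier results of these data had singled that region out. All the lists were chosen with earlier results of these data known, so none of their counts is independent evidence of direction. The ribonucleoprotein genes HNRNPF and HNRNPR were outside the splicing list. HNRNPF had 2 of 2 constructs called lower, and HNRNPR had 4 higher and 4 lower among 11. T-cell and immune signalling genes, SKAP1, UBASH3A, IL3RA and TNFSF10, had 7 higher and 6 lower calls among 21 constructs, with a median of -0.13.

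Gene context and region length went with little difference in the share of calls. Constructs inside genes were called in 62.3% (127 of 204), those of intergenic regions in 64.7% and those over a gene end in 62.5%. The split differed somewhat more, with 65 higher and 62 lower inside genes and 54 higher and 32 lower between genes, a difference that was not tested. Regions over 2000 bp had 68.4% of their constructs called, against 59.2% in regions over 1000 and up to 2000 bp and 61.4% in regions of at most 1000 bp. Of the 22 longer regions with at least 2 constructs, 19 held calls in both directions, against 11 of 36 in the middle class and 9 of 18 of the shortest, so the share did not rise steadily with length. The longer regions also had more constructs, 136 in 24 regions against 147 in 43 of the middle class and 70 in 23 of the shortest, and the part of that in the result was not tested. Among the 14 regions with 1 construct, 2 were called higher, 7 lower and 5 neither. Over all 358 deposited constructs the shares were 34.1% higher and 28.2% lower, and the difference was not tested.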

How the data were processed

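The submitters' processing notes name Bowtie2 and the build hg38 and give neither a version nor a role, and barcode filters are unknown. The natural log odds ratio (estimate), the z score, the p-value and the q-value of each construct were deposited by the authors, per the file headers, and combine the replicates. When recomputed, the p-values matched a normal test of z on both sides, and the q-values matched Benjamini-Hochberg adjustment across all 358 constructs. The standard error is the estimate divided by z. The direction was read from the name of the table. Starts were raised by 1 base, to count from 1. Genes are the overlapping or nearest of 19993 protein-coding genes of GRCh38.p14, and exons and introns were not resolved.

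Computed here were inverse-variance weighted means (a description, with no p), Cochran's Q with Benjamini-Hochberg adjustment over 76 regions, and differences of neighbouring constructs adjusted over 263 pairs (Python 3.11.15, scipy 1.17.1, both tested on simulated data). These tests take the errors of constructs as independent, which a shared scrambled control or shared reads would break. The nested variance model was fitted by REML (metafor 4.8.0, R 4.3.3) and was added after the values were seen. Members, lists and rules were chosen with earlier results of these data known. The rule named regions with 5 or more constructs, regions called in 1 direction throughout, the 10 widest gaps between precise opposite calls, the 10 most precise moderate means, opposite calls within 10 bp, regions without calls and regions of the gene lists. UBE4A, SPIC, FDPS, ATXN2, ENG, KLC4, SULT1C4 and the regions of the rejected constructs were named after their values were seen. Alternatives were another adjustment, a size limit, scaled errors, other means and other sets of pairs.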

Additional observations from a re-analysis of the deposited data

How the results depend on the processing

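Bonferroni adjustment left 120 of 223 construct calls and a minimum size of 0.5 left 114. Dividing z by its robust SD of 4.12, which treats the whole spread of z as error, left 4. Regions with calls in both directions went from 39 to 25 with Bonferroni adjustment and to 0 with scaled z (1 at an unadjusted p under 0.05), and regions without a call from 9 to 29 and 86. Scaled z left 2 regions with higher calls only and 2 with lower calls only. With errors multiplied by 4.12, Cochran's Q passed in 2 regions, CIAO3 and IL3RA, and 1 neighbouring pair differed, at CIAO3. Over all 824 pairs of constructs within a region, 494 differed (60.0%). Adding 0.2 to the errors in quadrature left Q passing in 46 of 76 regions, and leaving out the farthest construct of each region of 3 or more left 48.

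Weighted means were positive in 41 of 76 regions. With the construct left out that lowers each mean most, 19 were positive. The sign differed from that of the unweighted mean in 18 regions, the median in 15 and the random-effects mean in 15. With its wider error, the random-effects mean was 0.13 ± 0.26 at IL3RA, -0.10 ± 0.35 at CIAO3 and -0.33 ± 0.56 at HYAL1. At NDRG1 and VEGFB it was -0.35 ± 0.11 and 0.43 ± 0.21. The variance share between regions fell from 15.9% to 0% without MCPH1, and to 2.55% with precise constructs and without MCPH1. The share of calls inside genes was lower than between genes by 2.41 percentage points (a difference of -2.41), and within 1 kb of a gene end it differed from farther regions by -1.66. No paired analysis was possible because the deposited table has 1 value per construct over all replicates, and no replicate could be left out for the same reason.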
